A study of Oryza sativa Japonica Group with 4 samples.

Results

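The genes described here are 10 MADS-box transcription factors of rice, MADS1, MADS2, MADS14, MADS15, MADS18, MADS22, MADS47, MADS50, MADS55 and MADS56, as measured in the lamina joint before flowering. They were chosen by name: a probe set belongs to a member if the platform annotation pairs it with exactly 1 gene whose symbol or RefSeq synonym, without a leading Os, is 1 of the 10 names. All 10 were found, out of 17905 genes paired with a probe set, and 16 probe sets read them. MADS14 and MADS15 have 4 probe sets each and the other members 1 each. RefSeq also lists MADS2 as an old synonym of the gene called MADS18 here. That gene carries the name MADS18 as well and was counted once, under it.

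The lamina joint links the blade of a leaf to its sheath, and its growth sets the leaf angle. The mutant group was ila1 (2 arrays), and the wild type was ZH11, the japonica cultivar Zhonghua11 (2 arrays). ILA1 is a Raf-like MAP kinase kinase kinase, and leaves of its mutant stand at a wider angle. RNA of lamina joints from plants at the tillering stage was hybridised to Affymetrix Rice Genome Arrays, and the comparison asks which transcripts differ between mutant and wild type. Both arrays of each line are titled as biological replicates. How many plants went into each is not given in the sources used here.

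MADS-box proteins bind DNA as dimers and larger complexes through the conserved domain that names them. In the rice shoot, MADS14, MADS15 and MADS18 are APETALA1/FRUITFULL-like genes, which act when the vegetative apex turns into an inflorescence and are switched on downstream of florigen. MADS22, MADS47 and MADS55 are relatives of the Arabidopsis flowering repressor SVP and are known in rice as negative regulators of brassinosteroid responses, to which lamina joint bending belongs. MADS50 and MADS56 are relatives of Arabidopsis SOC1, of which MADS50 promotes heading and MADS56 opposes it in long days. MADS1 is a SEPALLATA-like gene of spikelet organs, and MADS2 is a PISTILLATA-like gene of lodicules and stamens.

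The arrays carry no detection call in the values used here, so a mark was set from sequences foreign to rice. On the ZH11 arrays the 95th percentile of 64 reporter and vector probe sets lay at signals of 78.2 and 83.7, and the higher value served as the mark. The ila1 arrays were not used for it, because a mutant line can carry vector sequence. Their 95th percentiles lay at 2962 and 2974. Of the 64 probe sets, 6 were above the mark on both ila1 arrays and 4 on at least 1 ZH11 array. The ZH11 count is largely fixed by the way the mark was set. Of 17905 genes, 12742 (71.2%) had signals above the mark on all 4 arrays. Signals of different probe sets depend on their probes, so no gene's level is ranked against another's. Median signal over all probe sets was 53.6 and 53.6 on the ila1 arrays and 56.0 and 57.9 on the ZH11 arrays. The ila1 arrays differed from each other more than the ZH11 arrays did, with a median absolute log2 difference over tested probe sets of 0.18 in the ila1 pair and 0.10 in the ZH11 pair. Log2 signals correlated at 0.983 within the ila1 pair and at 0.995 within the ZH11 pair, across probe sets, which are not independent replicates. LG1, a gene of ligule and lamina joint formation, read 318 and 234 on the ila1 arrays and 312 and 340 on the ZH11 arrays, all above the mark. The other lamina joint markers found, LG2 and TAC1, were below it on every array, LG2 between 20.7 and 23.1 and TAC1 between 21.3 and 50.2.

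Of the 10 genes, 7 were above the mark on all 4 arrays: MADS14, MADS18, MADS22, MADS47, MADS50, MADS55 and MADS56. MADS15 and MADS1 were above it on both ZH11 arrays and on ila1 replicate 2 but below it on ila1 replicate 1. MADS2 was below it on all 4. By the probe set with the highest mean signal per gene, MADS15 was called lower in ila1 and MADS50 and MADS2 higher, while the other 7 did not pass. The MADS2 call rests on signals below the mark. The test was limma on log2(signal + 16) over all tested probe sets, with a threshold of 0.05 on the Benjamini-Hochberg adjusted p. Over 15633 genes tested in the same way 18.3% were called, 5.67% as higher and 12.6% as lower in ila1, so the count of 3 in 10 is little above the rate of all genes. The median log2 fold change of the 10 was -0.34, against -0.02 over all tested genes. Both ila1 arrays lay beyond both ZH11 arrays for 8 of the 10, against 68.2% of all tested genes.

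**Figure D1:**
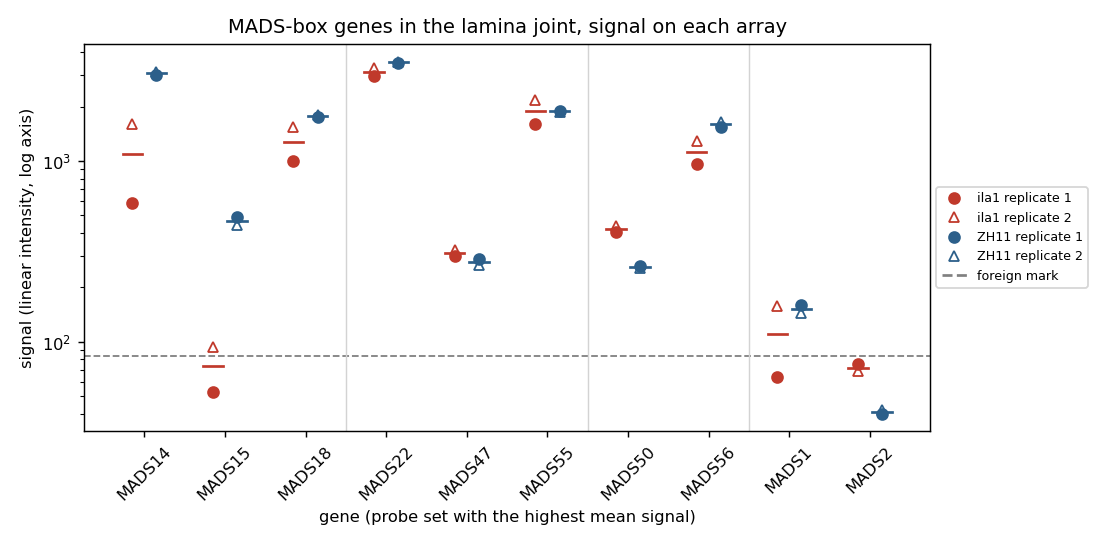
Signal of the 10 MADS-box genes on each array (vertical log axis, linear intensity, probe set with the highest mean signal), with ila1 in red and ZH11 in blue, circles for replicate 1, triangles for replicate 2, short lines for group means and the foreign mark of 83.7 as a dashed line. MADS15 lies near the mark in ila1, at 52.7 and 94.1, and well above it in ZH11, at 491 and 445.

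Of the APETALA1/FRUITFULL-like members, MADS15 and MADS14 had the largest log2 fold changes of the 10 members and MADS18 did not. MADS15 read 52.7 and 94.1 on the ila1 arrays, against 491 and 445 on the ZH11 arrays. Both ila1 values were far below both ZH11 values, and MADS15 averaged 73.4 ± 29.3 in ila1 and 468 ± 32.3 in ZH11 (SD, n = 2 each). On the signal + 16 scale it fell 5.56-fold, or -2.47 ± 0.25 (SE) as a log2 fold change, with a limma adjusted p of 0.00699. These values come from a probe set with the ending _x_at. The _a_at probe set of MADS15 read 33.2 and 81.4 in ila1 and 384 and 325 in ZH11. Both ila1 values were below the mark, so against the mark the fall was at least 3.70-fold on the signal + 16 scale (fitted log2 fold change -2.41 ± 0.34, limma adjusted p = 0.0159). The _s_at probe set read 34.1 and 55.8 in ila1 and 230 and 170 in ZH11. Its ila1 values too were below the mark, and the fall was at least 2.15-fold (fitted log2 fold change -1.83 ± 0.23, limma adjusted p = 0.0125). The fourth, a plain _at probe set, read between 6.60 and 10.2 on all arrays and was too dim to be tested. Thus all 3 tested probe sets of MADS15 were lower in ila1.

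MADS14 kept a clear signal in the mutant. Its probe set with the highest mean, of the plain _at kind, read 586 and 1609 on the ila1 arrays, against 3004 and 3113 on the ZH11 arrays. The groups did not overlap, but the ila1 arrays differed 2.75-fold from each other, and the log2 fold change of -1.64 ± 0.47 missed the threshold (limma adjusted p = 0.0802, 95% interval -2.84 to -0.43). The second plain _at probe set of MADS14 read 94.1 and 175 in ila1 and 685 and 675 in ZH11. It fell 4.79-fold (-2.26 ± 0.28 on the log2 scale, limma adjusted p = 0.0116) and is the only called probe set of the 4. The other two, of the _a_at and _x_at kinds, read 163 and 497, and 188 and 525, on the ila1 arrays, against 1041 and 1089, and 1106 and 1179, on the ZH11 arrays. Their log2 fold changes were -1.83 ± 0.50 and -1.80 ± 0.46, with limma adjusted p-values of 0.0723 and 0.0645. Every ila1 value of MADS14 was thus below every ZH11 value of the same probe set, on all 4 probe sets. Of the 15 tested member probe sets 4 were called lower and 2 higher, where 10.4% and 4.71% of all 34355 tested probe sets were (15.1% in either direction). Probe sets with _a_at in their ID match several transcripts of 1 gene, and those with _s_at or _x_at can also bind transcripts of related genes, so these are not independent readings.

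MADS18, the third APETALA1/FRUITFULL-like member, read 1001 and 1553 on the ila1 arrays, against 1745 and 1799 on the ZH11 arrays. All ila1 values were below all ZH11 values, but the log2 fold change of -0.50 ± 0.22 did not pass (limma adjusted p = 0.185, 95% interval -1.08 to 0.07).

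**Figure D2:**
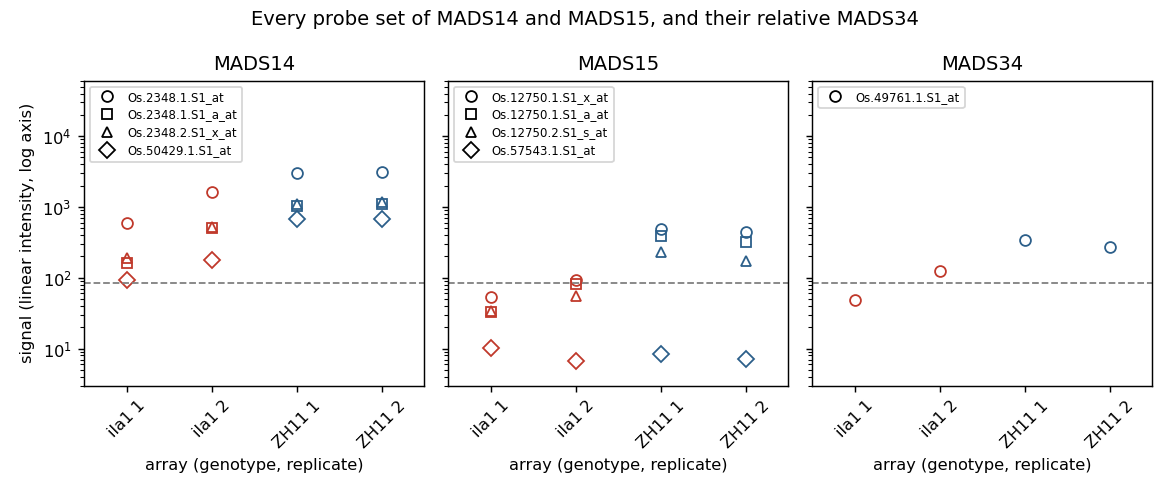
Signal (log axis, linear intensity) of every probe set of MADS14, MADS15 and MADS34 on each array, ila1 in red and ZH11 in blue, with the foreign mark dashed. The ila1 values of MADS14 run from 94.1 to 1609 and those of ZH11 from 675 to 3113, and ila1 replicate 1 is below ila1 replicate 2 on each MADS14 probe set and on each MADS15 probe set but the dimmest.

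The SVP-like genes were well above the mark in both genotypes, and none of the 3 passed the test. MADS22 read 2944 and 3285 on the ila1 arrays and 3481 and 3554 on the ZH11 arrays, with a log2 fold change of -0.18 ± 0.10 (limma adjusted p = 0.257, 95% interval -0.43 to 0.07). MADS22 has a probe set of the _s_at kind, so related transcripts may add to its signal. MADS55 read 1614 and 2173 in ila1 and 1904 and 1869 in ZH11. The ZH11 values lay between the ila1 values, and the log2 fold change was -0.01 ± 0.17 (limma adjusted p = 0.970, 95% interval -0.44 to 0.42). MADS47 read 298 and 324 in ila1 and 287 and 265 in ZH11, with a log2 fold change of 0.16 ± 0.13 (limma adjusted p = 0.404, 95% interval -0.17 to 0.49). The groups did not overlap for MADS22 and MADS47, and the intervals leave room for changes of up to 0.49 on the log2 scale. The signs of MADS22 and MADS55 were not stable to scaling: quantile normalization gave 0.045 and 0.25, and scaling to the hybridization controls 0.043 and 0.21, where the median over all tested genes was 0.13 and 0.19.

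Of the SOC1-like genes, MADS50 passed the test and MADS56 did not. MADS50 read 403 and 436 on the ila1 arrays, against 262 and 257 on the ZH11 arrays. The values were close within each genotype and well apart between them, and MADS50 averaged 419 ± 23.3 in ila1 and 260 ± 3.78 in ZH11 (SD, n = 2 each). It rose 1.58-fold (0.66 ± 0.12 on the log2 scale, limma adjusted p = 0.0309), and with the replicate number as a block it missed the threshold (limma adjusted p = 0.0529). MADS56 read 964 and 1287 in ila1 and 1551 and 1652 in ZH11, both ila1 values below both ZH11 values. Its log2 fold change of -0.52 ± 0.17 did not pass (limma adjusted p = 0.103, 95% interval -0.95 to -0.08).

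Of the floral organ genes among the members, MADS2 was below the mark on every array and MADS1 only on ila1 replicate 1. MADS1 read 63.5 and 157 on the ila1 arrays and 160 and 144 on the ZH11 arrays, so that ila1 replicate 2 lay between the ZH11 values and replicate 1 far below them. The log2 fold change was -0.51 ± 0.38 (limma adjusted p = 0.379), at 0.048 when ila1 replicate 1 was left out, and at -1.08, with a limma adjusted p of 0.000291, when replicate 2 was. MADS2 read 75.2 and 68.8 in ila1 and 40.1 and 42.1 in ZH11. It passed the test as higher in ila1 (0.62 ± 0.10 on the log2 scale, limma adjusted p = 0.0201). All 4 signals were below the mark set by foreign probe sets, so this value is not read as a change in transcript level.

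**Figure D3:**
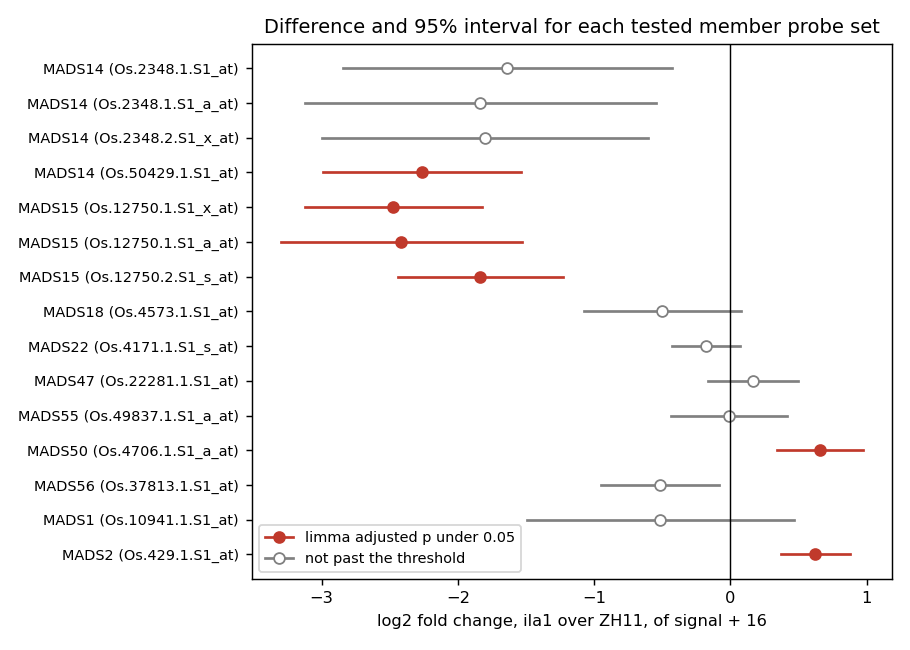
Log2 fold change of signal + 16, ila1 over ZH11 (horizontal axis), with its 95% interval from limma for the 15 tested probe sets of the 10 genes, filled red where the adjusted p was under 0.05. The 3 MADS15 probe sets and 1 of 4 MADS14 probe sets lie left of 0 as calls, at -2.47 to -1.83, and MADS50 and MADS2 right of it, at 0.66 and 0.62.

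Each call named above was lost when either ZH11 array was left out. In such a fit the spread comes from the ila1 pair alone, and 0 of the 10 genes passed limma's adjusted threshold, with 3 at an unadjusted p under 0.05 without ZH11 replicate 1 and 2 without ZH11 replicate 2. Without ila1 replicate 1 or ila1 replicate 2, where the spread comes from the ZH11 pair, 5 and 8 were called. The sizes moved less: MADS15 read -2.81 to -2.13 and MADS50 0.60 to 0.71 over these 4 fits. MADS14, on its probe set with the highest mean, moved to -2.35 when ila1 replicate 2 was left out and to -0.92 when replicate 1 was.

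**Figure D4:**
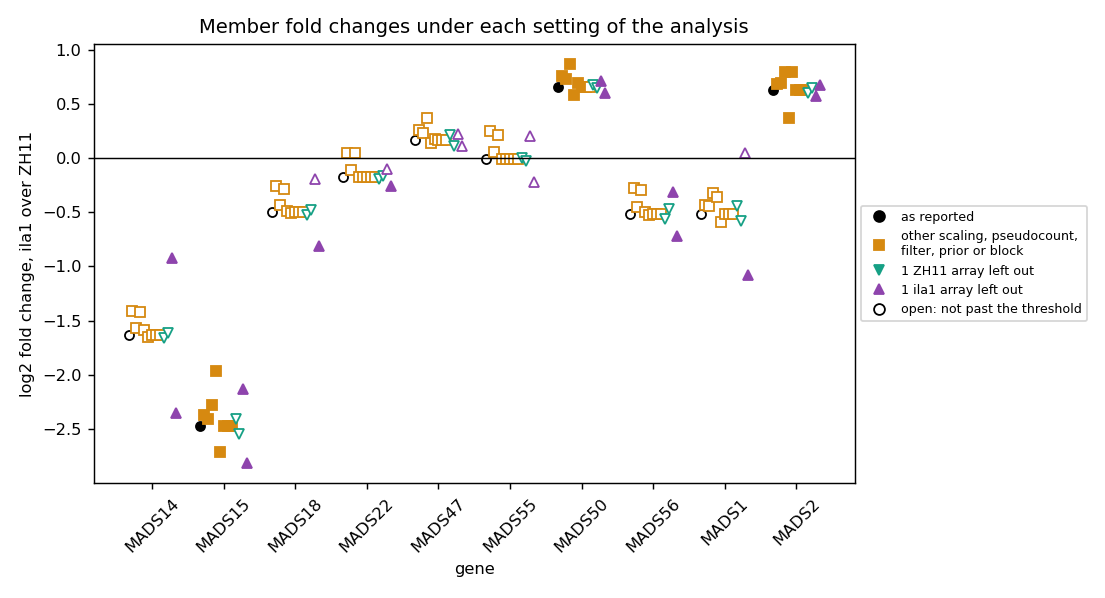
Log2 fold change of each gene, ila1 over ZH11 (vertical axis), as reported (black circles), under other scalings, pseudocounts, filters, priors and the replicate block (orange squares), and with 1 ZH11 array (green) or 1 ila1 array (purple) left out, filled where the adjusted p was under 0.05. MADS15 stays between -2.81 and -1.97, while MADS14 moves from -2.35 to -0.92 with the ila1 array left out.

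The ila1 arrays differed from each other in a shared direction. Replicate 1 was below replicate 2 for 9 of the 10 genes, all but MADS2, against 47.1% of the 15633 tested genes. MADS14 and MADS1, at signal ratios of 2.75 and 2.48, were among the 2.96% of tested genes (463) in which replicate 2 was at least 2-fold above replicate 1 on the signal + 16 scale. Some genes of the daily clock, named after their values were seen, also differed between these arrays. LHY, a morning gene of the clock, read 68.4 on ila1 replicate 1 and 675 on ila1 replicate 2, a ratio of 9.87, and 373 and 395 on the ZH11 arrays. PRR1, an evening gene, went the other way, at 1126 and 501 on the ila1 arrays and 912 and 932 on the ZH11 arrays. PRR95, another clock gene, read 1050 and 2871 in ila1 and 1971 and 2141 in ZH11, and the chlorophyll-binding protein gene CAB2R 4562 and 9277 in ila1 and 9498 and 10034 in ZH11. The clock genes GI and PRR73 differed less, GI at 6085 and 5176 in ila1 and 5812 and 5992 in ZH11, and PRR73 at 2459 and 3088 in ila1 and 3289 and 3349 in ZH11. The part of these differences in the MADS-box values was not tested.

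Another 21 MADS-box genes with a name were on the array. Of these, 17 were below the mark on all 4 arrays and too dim to be tested, MADS3, MADS5, MADS6, MADS7, MADS8, MADS13, MADS17, MADS20, MADS21, MADS23, MADS25, MADS27, MADS29, MADS30, MADS33, MADS57 and MADS58. MADS16, an APETALA3-like gene of lodicules and stamens, read 415 and 416 in ila1 and 544 and 475 in ZH11, and MADS4, a PISTILLATA-like gene, 133 and 146 in ila1 and 173 and 177 in ZH11. Neither passed (log2 fold changes -0.28 ± 0.13 and -0.30 ± 0.12, limma adjusted p = 0.198 and 0.163). MADS26 read 78.8 and 58.9 in ila1 and 86.5 and 61.8 in ZH11 (-0.08 ± 0.19 on the log2 scale, limma adjusted p = 0.782).

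MADS34, a SEPALLATA-like gene known to act together with MADS14, MADS15 and MADS18 in rice inflorescence meristems, was the only other MADS-box gene called. It read 48.3 and 123 on the ila1 arrays, against 338 and 271 on the ZH11 arrays. Both ila1 values were below both ZH11 values, with ila1 replicate 1 below the mark. It fell 3.37-fold (-1.75 ± 0.39 on the log2 scale, limma adjusted p = 0.0455), close to the threshold. It missed the threshold after quantile normalization (-1.66), on arrays scaled to the hybridization controls (-1.56) and with a pseudocount of 1 (-1.96), at limma adjusted p-values of 0.0505 to 0.0517. In the RefSeq assembly MADS34 is the next gene to MADS14 on chromosome 3, with 0 genes between them. MADS1 likewise has 0 genes between it and DL, another reproductive gene. Neither of these was called (limma adjusted p = 0.379 and 0.495). Over a list of 17 reproductive genes, which includes MADS34, summed signal was 926 and 1022 on the ila1 arrays and 1423 and 1326 on the ZH11 arrays, with 2 and 3 genes above the mark in ila1 and 3 and 4 in ZH11. Without MADS34 the sums were 878 and 899 in ila1 and 1085 and 1055 in ZH11. MADS16 alone gave 415 and 416 of these in ila1 and 544 and 475 in ZH11. The sums thus follow the brightest genes and do not describe the list as a whole. The floral meristem and spikelet genes FZP and RFL were below the mark throughout, FZP at 10.3 and 11.1 in ila1 and 14.4 and 11.7 in ZH11 and RFL at 22.2 and 28.2 in ila1 and 29.9 and 31.4 in ZH11. DL, of the same list, was below it too, between 36.6 and 42.6. LAX1 read 57.4 and 66.4 in ila1 and 74.25 and 96.2 in ZH11, above the mark only on ZH11 replicate 2. It did not pass (log2 fold change -0.37 ± 0.15, limma adjusted p = 0.157). In whole tissue, fewer cells of a kind and less RNA per cell cannot be told apart.

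**Figure D5:**
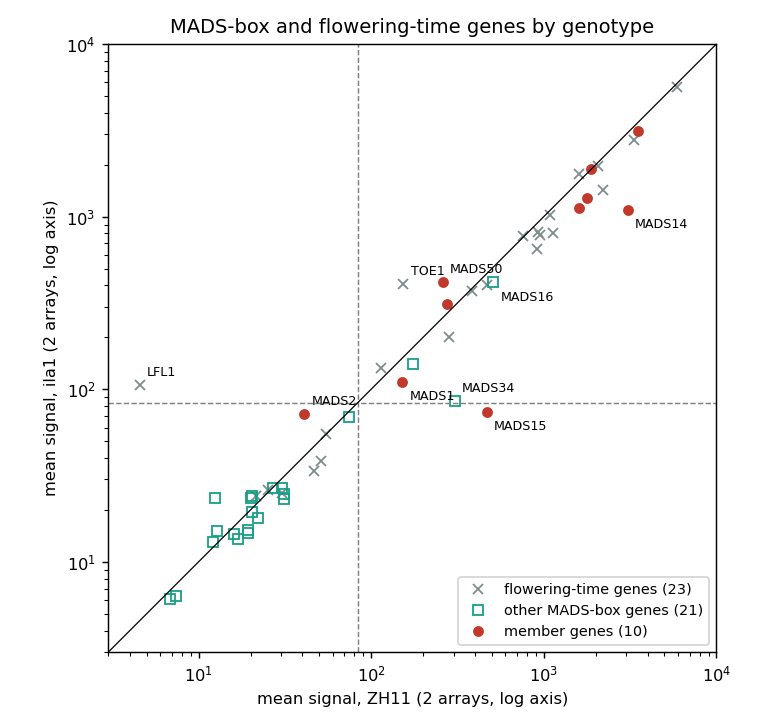
Mean signal in ila1 (vertical) against ZH11 (horizontal), both on log axes and over 2 arrays, for the 10 member genes (red), 21 other MADS-box genes (green squares) and 23 flowering-time genes (grey crosses), with the foreign mark dashed and the line of equal signal solid. MADS14, MADS15 and MADS34 lie below the line, LFL1 and TOE1 above it, and 18 of the 21 green squares have means below the mark in both genotypes.

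Of the shoot meristem markers, OSH1, OSH6 and WOX4 were below the mark on every array. The meristem gene OSH1 read 24.7 and 27.1 in ila1 and 24.3 and 31.7 in ZH11. OSH6 read between 23.5 and 33.1 and WOX4 between 42.2 and 58.5. OSH43 was above the mark only on ila1 replicate 2, at 92.6. FON1, a receptor kinase gene, was above the mark on every array, at 437 and 281 in ila1 and 297 and 273 in ZH11. So was the homeobox gene OSH71, at 98.8 and 146 in ila1 and 161 and 143 in ZH11. The 6 genes of this list summed to 705 and 628 in ila1 and 647 and 615 in ZH11. For leaf blade genes the list held only 3 genes, with sums of 14180 and 20256 in ila1 and 18057 and 18793 in ZH11. The sums hide genes that went different ways. RBCS read 8860 and 10531 in ila1 and 8173 and 8377 in ZH11. FBP1 read 758 and 447 in ila1 and 385 and 382 in ZH11. CAB2R went the other way, at 4562 and 9277 in ila1 and 9498 and 10034 in ZH11. None of the 3 passed the test.

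Genes that set heading time include many that act above the members. Of 23 found by name, 18 were tested, and 1 rose, 1 fell and 16 did not pass, where 18.3% of all tested genes were called, at a median log2 fold change of -0.25 against -0.02 over all tested genes. The florigen gene HD3A, upstream of MADS14 and MADS15, was below the mark at 22.9 and 29.2 in ila1 and 26.5 and 24.2 in ZH11. TOE1, an AP2-family gene whose Arabidopsis namesake represses flowering, rose 2.49-fold, at 340 and 476 in ila1 against 133 and 175 in ZH11 (1.31 ± 0.22 on the log2 scale, limma adjusted p = 0.0243). Its probe set is of the _s_at kind, so related transcripts may add to its signal. PHYC, a phytochrome photoreceptor gene with 4 genes between it and MADS14, fell 1.41-fold, at 631 and 663 in ila1 against 917 and 915 in ZH11 (-0.49 ± 0.11 on the log2 scale, limma adjusted p = 0.0488). It did not pass with any of 3 other scalings, at log2 fold changes of -0.42 to -0.27, nor with no filter on low values (limma adjusted p = 0.0693). EHD4, a zinc finger gene that promotes heading, read 763 and 838 in ila1 and 1069 and 1192 in ZH11, and PRR37, which delays heading in long days, 1156 and 1705 in ila1 and 2099 and 2318 in ZH11. Their log2 fold changes of -0.49 ± 0.12 and -0.65 ± 0.21 did not pass (limma adjusted p = 0.0627 and 0.0996).

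LFL1, a B3-domain gene known in rice as a repressor of the heading activator EHD1 and placed downstream of MADS50 and MADS56, was too dim on average to be tested and is named here after its values were seen. It read 112 and 101 on the ila1 arrays and 4.31 and 4.84 on the ZH11 arrays, above the mark in ila1 and far below it in ZH11. With no filter on low values it passed as higher in ila1 (limma adjusted p = 0.000711). With the ZH11 values set at the mark, the mean rise was 1.22-fold on the signal + 16 scale. The fitted log2 fold change of 2.57 depends on the pseudocount, since the ZH11 signals are far below it.

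Of 18 brassinosteroid response genes found, the setting in which the SVP-like members are known, 17 were tested, and 1 rose, 1 fell and 15 did not pass, where 18.3% of all tested genes were called. Their median log2 fold change was -0.06, against -0.02 over all tested genes. DWARF, the C-6 oxidase of brassinosteroid synthesis, read 314 and 414 in ila1 against 82.6 and 65.3 in ZH11. Both ZH11 values were below the mark, and the rise was at least 3.78-fold against it (fitted log2 fold change 2.07 ± 0.19, limma adjusted p = 0.00564). BZR1, a transcription factor of brassinosteroid signalling, read 80.8 and 76.9 in ila1 against 183 and 171 in ZH11. Both ila1 values were below the mark, and the fall was at least 1.93-fold against it (fitted log2 fold change -1.02 ± 0.12, limma adjusted p = 0.00941). GSK2, a kinase that restrains this signalling, read 1079 and 602 in ila1 and 378 and 324 in ZH11, and the receptor gene BRI1 1042 and 1102 in ila1 and 1396 and 1404 in ZH11. Neither passed, at log2 fold changes of 1.17 ± 0.29 and -0.38 ± 0.10 (limma adjusted p = 0.0621 and 0.0740), though GSK2 did with quantile normalization (1.33), with scaling to the hybridization controls (1.38) and with the replicate block (limma adjusted p = 0.0339).

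For MADS15 and MADS2, the members with the smallest p-values by gene, the named genes with the most similar pattern over the 4 arrays were looked up among 2129 by Euclidean distance of centred log2 values. Nearest to MADS15 were 4CL5, a 4-coumarate-CoA ligase (distance 0.211), the lipoxygenase CM-LOX2 (0.227) and the protein phosphatase gene OsPP2C29 (0.255). Their log2 fold changes were -2.51, -2.29 and -2.29. Nearest to MADS2 were OsPHR3, a phosphate response regulator (0.0522), EIN2, of ethylene signalling (0.0609), and the protein phosphatase gene OsPP2C01 (0.0942), at log2 fold changes of 0.61, 0.59 and 0.56. With 4 arrays in 2 genotypes many genes share such a pattern. Fold changes close to those of the member follow from the choice by distance. The MADS2 signals were below the mark on all 4 arrays, and OsPP2C01 did not pass the test (limma adjusted p = 0.0525).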

How the data were processed

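The authors deposited a table of linear intensity values, 1 for each of 57381 probe sets on each array. RNA was isolated with TRIzol, per the labels' protocols. Which software made the values, and whether it scaled the arrays, is not given in the sources used here.

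Left out were 123 Affymetrix control probe sets. To each intensity 16 was added and log2 was taken, and a filter on mean log2 value set aside the dimmest 40%, which left 34355 probe sets to test (a mean signal of about 39.6 or more). The comparison of ila1 with ZH11 used limma 3.58.1 under R 4.3.3 (lmFit, eBayes with trend, two-sided, Benjamini-Hochberg over all tested probe sets). The fit had 2 residual degrees of freedom and a prior worth 2.91, and was tested on simulated data. The simulation gave both genotypes the same spread and independent errors. It thus does not cover the wider spread of the ila1 pair. Tables and plots used Python 3.11.15, pandas 2.3.3 and matplotlib 3.10.9. The number of arrays limits the precision. Where both arrays of 1 genotype lay below the mark, a fold was also computed with those arrays set at the mark. This choice was made after the data were seen. Such a fold is a mean without the spread between arrays, so the true change can be smaller.

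Names came from the platform annotation, in which 22436 probe sets have 1 gene, 95 have several and 34850 are unnamed here, and from RefSeq assembly ASM3414082v1. Gene counts use the probe set with the highest mean per gene. List names that matched another gene (RCN1, IDS1 and LPA1) were dropped by synonym.

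The members and lists were chosen with earlier results of these data known. Named are all members, every other MADS-box gene called, up to 4 genes of the heading and brassinosteroid lists with the smallest unadjusted p, and 3 nearest genes for each of 2 members. Genes of the clock, marker genes and LFL1 were named beside these, after their values were seen. Alternatives were 3 scalings, pseudocounts of 1 and 64, no filter, no trend, a replicate block, each array left out, and a mean over the probe sets of each gene.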

Additional observations from a re-analysis of the deposited data

How the results depend on the processing

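Over all probe sets 1619 were called higher and 3572 lower in ila1, against 2926 and 2863 after quantile normalization, 2083 and 3066 after median centring and 3344 and 2381 when arrays were scaled by hybridization controls. The count of 5191 ranged from 22 to 14800 with 1 array left out (22 and 114 without ZH11 replicate 1 or 2, 10539 and 14800 without ila1 replicate 1 or 2). In the same fits the members called ranged from 0 to 8 (3 as reported), other MADS-box genes from 0 to 1 (1), flowering-time genes from 0 to 11 (2) and brassinosteroid genes from 0 to 12 (2), each 0 with 1 ZH11 array. Without ZH11 replicate 1 or 2, limma's unadjusted p was under 0.05 for 3 and 2 members, 1 and 1 other MADS-box genes, 1 and 1 flowering-time genes and 4 and 2 brassinosteroid genes. All 16 named probe sets that had been called missed the threshold in each fit with 1 ZH11 array, which takes its spread from the ila1 pair. Members called stayed at 3 under the other scalings, pseudocounts, no filter, no trend and the mean of all probe sets. Other MADS-box genes called were 0 with quantile normalization, arrays scaled to controls, a pseudocount of 1 and the mean of all probe sets (limma, with 1, 1, 1 and 2 at an unadjusted p under 0.05), and 2 with no filter, where MADS27 joined at a log2 fold change of 0.47 and signals below the mark. Flowering-time genes called were 1 under the 3 scalings and the replicate block, and with no filter 2, both higher, since PHYC was lost and LFL1 joined, and brassinosteroid genes 5 with arrays scaled to controls (alternatives for this list were chosen after seeing the data). Signs turned for MADS22 (0.045 under quantile normalization, 0.043 scaled to controls) and MADS55 (0.25 and 0.21, and 0.057 with median centring). With 1 array left out MADS55 ranged from -0.22 to 0.20, positive without ZH11 replicate 1 (0.00299) or ila1 replicate 1, and MADS1 from -1.08 to 0.048, positive without ila1 replicate 1. No positive value among these passed.

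The labels do not say that equal replicate numbers share a plant or day, and deviations of equally numbered arrays correlated at 0.103. With the replicate block 4816 probe sets and 2 members were called. MADS14 passed on 2 more probe sets (limma adjusted p = 0.0480 and 0.0419), GSK2 passed, and MADS50, PHYC, OsPHR3 and EIN2 missed the threshold.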
